A study of Sorghum bicolor with 34 samples.

Results

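The lateral root apex of sorghum was compared with the elongation zone of the seminal root by RNA-seq. All libraries that the sample labels assign to these regions were taken, which gave 6 of the 10 RNA-seq libraries and 6 of the 34 samples of the series. The plants were the reference cultivar BTx623, grown hydroponically and collected at day 10 with low phosphorus (LP, 2.5 μM phosphate) or sufficient phosphorus (SP, 45 μM phosphate). The lateral root apex was taken as the terminal 2 cm of the longer lateral roots and has 1 LP and 1 SP library. The elongation zone lies 2 to 4 cm behind the tip of the seminal root, is called intermediate root in the labels, and has 2 LP and 2 SP libraries. The methods give 10 plants for each biological replicate and 2 replicates, whereas the labels hold 1 lateral library for each phosphorus level, so that no lateral library had a replicate of its own. Organ (lateral or seminal root) and distance from the tip differ together between the regions and cannot be told apart.

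A root grows from a meristem at its tip, where cells divide, and the cells then elongate behind it before root hairs, endodermis and vascular tissue mature. Elongating cells take up water into the vacuole while their walls are loosened and rebuilt, and callose, a glucan made by callose synthases, is laid down at cell plates, plasmodesmata and sieve plates. Lateral roots arise from inner tissue of the parent root, build their own meristem, and in many plants take up much of the phosphate and other nutrients.

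Each of the 6 libraries held between 10423908 and 19067049 estimated counts over 47110 transcript IDs, and 33039 transcripts (70.1%) had enough counts to be tested. The SP library of the lateral root apex stood apart, with 27753 transcripts detected and 16.1% of its counts in its 20 most abundant transcripts, as did elongation zone LP replicate 2 with 27578 detected transcripts. The other 4 of these 6 libraries had 32096 to 36028 detected transcripts. Both lateral libraries, as well as replicate 2 of the elongation zone at LP and at SP, had shorter fragments (transcript length exceeded effective length by 166.7 to 168.8 bases) than the other libraries (185.4 to 189.8 bases). Fragment length is therefore partly shared with the region.

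Levels below are counts scaled to library size after TMM normalization (CPM), and changes are log2 fold changes of the lateral root apex over the elongation zone with phosphorus level as a block, given with their standard error. A transcript was called at a Benjamini-Hochberg adjusted p under 0.05 in edgeR's quasi-likelihood test, adjusted over all tested transcripts. Because each transcript is a share of its library, fewer cells of a type and less RNA per cell cannot be told apart.

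Across all tested transcripts, 723 were higher and 400 lower in the lateral root apex, which is 3.4% of those tested (2.19% higher and 1.21% lower). Without the 2 libraries of few detected transcripts, an alternative chosen after seeing the data, 537 were higher and 577 lower, and 479 calls were shared. With phosphorus as a block, that setting compares 1 lateral LP library with 1 elongation zone LP library. The called rises had a median log2 fold change of 2.67 and the called falls of -2.85, against a median of -0.25 for all tested transcripts. Of the 1123 called transcripts, 1076 (95.8%) had lateral and elongation zone values that did not overlap, against 26.2% of all tested transcripts, and since the calls were made on the same libraries this only describes them. These counts rest on the 4 seminal root apex libraries as well, which add to the estimate of the spread. With the 6 lateral and elongation zone libraries alone no transcript was called by edgeR, the smallest adjusted p was 0.107, and 5443 transcripts had an unadjusted p under 0.05. DESeq2 on all 10 libraries called 6119. Leaving out 1 library at a time gave 46 calls without the lateral SP library and 4536 without the lateral LP library. It gave 55 and 67 without elongation zone SP replicates 1 and 2, 215 and 4591 without LP replicates 1 and 2 of that zone, and 135 to 351 without a seminal root apex library.

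The change varied with transcript length. When tested transcripts were divided by length into 4 groups of nearly equal number, in the shortest group (up to 1344 bases) the median log2 fold change was 0.22, with 327 called higher and 51 lower. In the longest group (2999 bases and more) it was -0.66, with 57 called higher and 128 lower. With fragment length class as a block these medians were 0.26 and -0.38, and 13 transcripts were called higher and 6 lower, while all 1123 transcripts kept their direction.

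**Figure D1:**
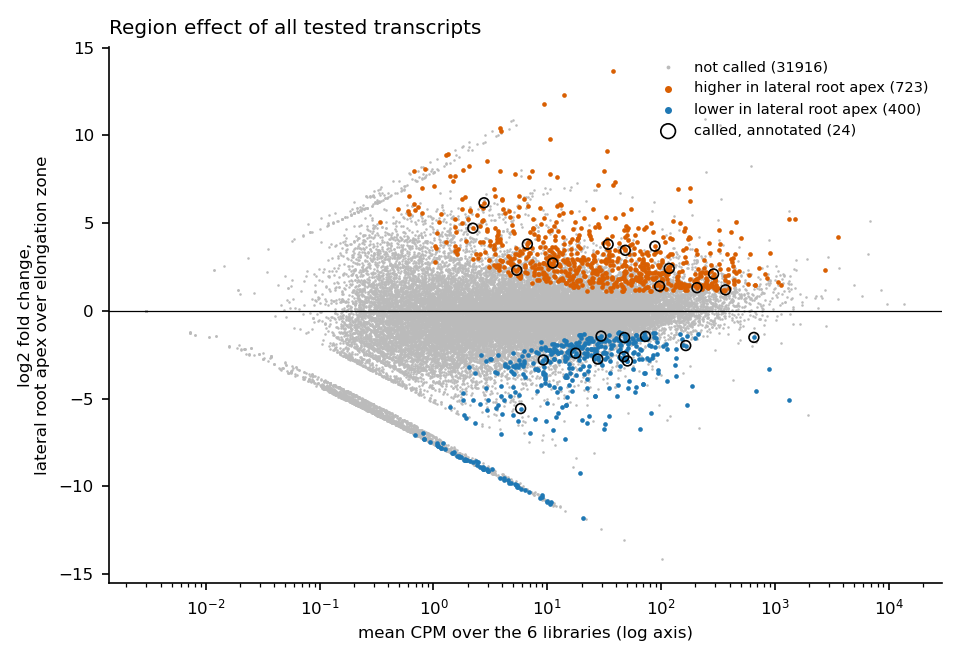
Log2 fold change of the lateral root apex over the elongation zone (vertical axis) against mean CPM over the 6 libraries (log axis) for all 33039 tested transcripts. Orange points are the 723 transcripts called higher, blue points the 400 called lower and black circles the 24 called transcripts that are annotated, and the lower diagonal band holds transcripts at 0 counts in both lateral libraries.

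The deposited values name transcripts by protein ID. Of the 47110 IDs, 775 could be paired with a gene or an Arabidopsis match through the study's supplementary lists, which the authors drew up around phosphate starvation and around expression changes in these same roots, and 638 of those were tested. Among them 13 were called higher and 11 lower in the lateral root apex (3.76%, close to the 3.4% of all tested transcripts), with adjusted p between 0.0103 and 0.049. In all 24 the 2 lateral values lay outside the range of the 4 elongation zone values, as the plot of levels in each library shows. This held for 95.8% of all called and 26.2% of all tested transcripts. The calls were made on the same libraries, so that it only describes the 24. Names of Arabidopsis genes below refer to these matches, and the roles are those known in Arabidopsis.

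The largest called change among wall proteins was that of EER99405 (SORBI_3002G307900), matched to the class III peroxidase PRX7, a family of apoplastic enzymes that cross-link or loosen the wall. Its level was 6.87 CPM in the LP and 9.39 CPM in the SP library of the lateral root apex, against 0.144 and 0 CPM in the LP and 0.148 and 0.131 CPM in the SP libraries of the elongation zone. It was near absent from the elongation zone at both phosphorus levels and present in both lateral libraries. The log2 fold change was 6.16 ± 0.72 (edgeR adjusted p = 0.0124, 2 against 4 libraries). In the seminal root apex the same transcript ranged between 2.57 and 8.97 CPM.

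In contrast, both called callose synthases were lower in the lateral root apex. OQU86033 (SORBI_3004G358400), matched to GSL3, had 25.5 CPM in the LP and 41.4 CPM in the SP lateral library, against 82.4 and 52.4 CPM in the LP and 129 and 107 CPM in the SP elongation zone libraries. OQU93328 (SORBI_3001G521500), also matched to GSL3, had 8.22 and 19.2 CPM in the LP and SP lateral libraries, against 23.1 and 20.6 CPM in the LP and 54.1 and 53.1 CPM in the SP elongation zone libraries. Each lateral value was below all elongation zone values, and within each region the SP libraries were above the LP libraries. The log2 fold changes were -1.46 ± 0.28 for OQU86033 (edgeR adjusted p = 0.0368) and -1.44 ± 0.26 for OQU93328 (adjusted p = 0.0302). All 6 transcripts matched to callose synthases had a negative log2 fold change, from -2.47 to -0.89. The median was -0.25 over all tested transcripts and -0.66 in the longest of the 4 length groups. Of the 6, 3 had both lateral values below all elongation zone values and 3 overlapped, and 2 were called. Over all tested transcripts, 14.5% had both lateral values below the elongation zone and 1.21% were called lower. Callose synthases are long, similar genes, so that reads shared by copies are split by estimation. With fragment length as a block the log2 fold changes were -1.21 for OQU86033 and -1.40 for OQU93328, and neither was called (adjusted p = 0.138 and 0.129).

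A further wall-related transcript was EER94859 (SORBI_3001G372500), matched to UGE2, a UDP-glucose 4-epimerase that supplies UDP-galactose for wall polymers. It had 94.3 CPM in the LP and 26.2 CPM in the SP lateral library, against 292 and 321 CPM in the LP and 100.4 and 156 CPM in the SP elongation zone libraries. It was higher at LP than at SP in both regions and lower in the lateral root apex at each level, with a log2 fold change of -1.98 ± 0.31 (edgeR adjusted p = 0.0248). Another UGE2 match, EES14924, had a log2 fold change of the other sign that was not called (1.03 ± 0.31, adjusted p = 0.104).

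Among the proteins of the cytoskeleton, EER90980 (SORBI_3001G112100), matched to the microtubule bundling protein MAP65-6, was called higher. The lateral root apex had 60.4 CPM at LP and 118 CPM at SP, against 6.81 and 11.4 CPM in the LP and 4.95 and 4.37 CPM in the SP elongation zone libraries. The log2 fold change was 3.79 ± 0.48, a 13.9-fold difference (edgeR adjusted p = 0.0146). Its level in the seminal root apex, between 52.8 and 115 CPM, was near that of the lateral libraries. The 2 other MAP65-6 matches were not called, EER92583 with 1.47 ± 0.41 (adjusted p = 0.0892) and EER98994 with -0.79 ± 0.49 (adjusted p = 0.357).

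The auxin-related call was EER91314 (SORBI_3001G184800), a small auxin-up RNA (SAUR), one of a large family of short, fast-responding auxin transcripts linked to cell expansion. It had 7.3 CPM in the LP and 4.91 CPM in the SP lateral library, against 0.575 and 0.321 CPM in the LP and 0.0739 and 0.131 CPM in the SP elongation zone libraries. These are low levels, but the ranges did not overlap, and the log2 fold change was 4.71 ± 0.69 (edgeR adjusted p = 0.0204). Of the 18 SAUR matches, 8 were tested, 3 of them had both lateral values above all elongation zone values, and 1 was called. Over all tested transcripts, 11.7% had both lateral values above the elongation zone and 2.19% were called higher.

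Several transporters changed. EER91153 (SORBI_3001G153100), matched to SULTR1;3, a high-affinity sulfate transporter of the phloem, was abundant in the lateral root apex, with 211 CPM at LP and 285 CPM at SP, against 19.2 and 37.8 CPM in the LP and 87.9 and 66.9 CPM in the SP elongation zone libraries. Within the elongation zone the LP values were below the SP values, and both lateral values exceeded all of them. The log2 fold change was 2.42 ± 0.40 (edgeR adjusted p = 0.0265). Of 3 SULTR1;3 matches, 1 had enough counts to be tested.

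EER97376 (SORBI_3002G339100), a major facilitator protein matched to the organic cation transporter family, had 79.2 CPM at LP and 389.6 CPM at SP in the lateral root apex, against 8.01 and 23.2 CPM in the LP and 11.6 and 18.3 CPM in the SP elongation zone libraries. The log2 fold change was 3.69 ± 0.68 (edgeR adjusted p = 0.0326), with the larger part of the gap at SP. Of 3 matches to this transporter, 2 were tested. The other tested match had overlapping values and a log2 fold change of -2.45, and was not called. EER96273 (SORBI_3002G115600), a TauE-like transmembrane protein, had 4.61 CPM at LP and 19.6 CPM at SP, against 1.49 and 1.54 CPM in the LP and 2.07 and 3.1 CPM in the SP elongation zone libraries (2.31 ± 0.49, edgeR adjusted p = 0.0461). EER97376 and EER96273 were highest in the lateral SP library, the library with few detected transcripts.

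A pair of other transporters was lower instead. KXG19351 (SORBI_3010G046700), matched to ABCC10 of the ABC transporters, had 11.5 CPM at LP and 7.58 CPM at SP in the lateral root apex, against 96.1 and 88 CPM in the LP and 41.1 and 59.4 CPM in the SP elongation zone libraries. Its log2 fold change of -2.86 ± 0.31 had the smallest adjusted p among the 24 (edgeR adjusted p = 0.0103), and the seminal root apex, with 8.75 to 10.9 CPM, was also low. KXG21207 (SORBI_3009G029500), a cation efflux protein, had 0.283 CPM at LP and 0 CPM at SP in the lateral root apex, against 5.75 and 4.62 CPM in the LP and 14 and 10.4 CPM in the SP elongation zone libraries. It was nearly missing from both lateral libraries (-5.57 ± 0.98, edgeR adjusted p = 0.0291), whereas the seminal root apex had 16 to 20.9 CPM. A second transcript of this gene, OQU77333, is on the metal and organic acid transport list below, and KXG21207 itself is not. No tested member of that list was called or had both lateral values below the elongation zone.

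Nitrogen and carbon metabolism contributed a pair of called falls. KXG39588 (SORBI_3001G406800), matched to asparagine synthetase ASN1, which makes the nitrogen transport compound asparagine, had 416 CPM at LP and 163 CPM at SP in the lateral root apex, against 1105 and 1336 CPM in the LP and 441 and 469 CPM in the SP elongation zone libraries. Its level was higher at LP in both regions, and its log2 fold change between the regions was -1.52 ± 0.30 (edgeR adjusted p = 0.0388). KXG33409 (SORBI_3003G301800), matched to phosphoenolpyruvate carboxylase, the enzyme that fixes carbon into oxaloacetate for organic acid synthesis, had 15.9 CPM at LP and 3.27 CPM at SP, against 155 and 75.3 CPM in the LP and 17.7 and 16.2 CPM in the SP elongation zone libraries. Here the lateral LP value lay just below the SP values of the elongation zone, and the log2 fold change was -2.62 ± 0.42 (edgeR adjusted p = 0.0254). A second match of the carboxylase, EES13699, had lateral values above all elongation zone values and was not called (1.37 on the log2 scale, adjusted p = 0.067).

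The next 3 called falls were a phloem regulator, a kinase and a transcription elongation factor subunit. EES08010 (SORBI_3005G043000), matched to SMXL3, a regulator of phloem formation, had 4.39 CPM at LP and 4.74 CPM at SP in the lateral root apex, against 23.7 and 25 CPM in the LP and 21.7 and 27.1 CPM in the SP elongation zone libraries. Within each region the libraries were close to one another at both phosphorus levels (-2.42 ± 0.41, edgeR adjusted p = 0.0275). EER92783 (SORBI_3001G489300), with a protein kinase domain, had 11.1 CPM at LP and 2.24 CPM at SP, against 48.7 and 28.5 CPM in the LP and 40.4 and 35.7 CPM in the SP elongation zone libraries (-2.75 ± 0.59, edgeR adjusted p = 0.0468). EER88041 (SORBI_3010G078900), matched to a subunit of the SPT5 family of transcription elongation factors, had 20.8 CPM at LP and 20.4 CPM at SP, against 61.3 and 35 CPM in the LP and 79.5 and 69.4 CPM in the SP elongation zone libraries (-1.52 ± 0.33, edgeR adjusted p = 0.049).

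Of the enzymes of specialised metabolism, OQU78568 (SORBI_3008G001800), matched to a terpene synthase, had 1.56 CPM at LP and 1.98 CPM at SP in the lateral root apex, against 12.8 and 5.39 CPM in the LP and 16.9 and 16.7 CPM in the SP elongation zone libraries (-2.80 ± 0.54, edgeR adjusted p = 0.036). EES15867 (SORBI_3008G079800), matched to the beta-glucosidase BGLU25, went the other way with 436 CPM at LP and 759 CPM at SP, against 110.1 and 153 CPM in the LP and 144 and 135 CPM in the SP elongation zone libraries (2.1 ± 0.31, edgeR adjusted p = 0.0202). The 4 elongation zone values of EES15867 were close to one another and the seminal root apex was also high, between 457 and 1204 CPM.

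The called ribosomal protein transcripts were 3, all abundant and all higher in the lateral root apex by less than 3-fold. EER89366 (SORBI_3010G070500), matched to RPL35A of the large ribosomal subunit, had 359 CPM at LP and 328 CPM at SP in the lateral root apex, against 137 and 169 CPM in the LP and 127 and 122 CPM in the SP elongation zone libraries (1.32 ± 0.23, edgeR adjusted p = 0.0299). EER90362 (SORBI_3010G260100), matched to RPL30, had 207 CPM at LP and 128 CPM at SP, against 50.1 and 71.2 CPM in the LP and 50.9 and 75.9 CPM in the SP elongation zone libraries (1.41 ± 0.30, edgeR adjusted p = 0.0479). EER98790, another RPL35A match that falls outside the rule for named transcripts and was named after its values were seen, had a log2 fold change of 1.19 ± 0.24 (edgeR adjusted p = 0.0394). Taking all 7 RPL30 and RPL35A matches, a group chosen after its values were seen, 6 had both lateral values above all elongation zone values (11.7% of all tested transcripts did) and log2 fold changes ranged between 0.45 and 2.56. Transcripts of near-identical copies share reads that are split by estimation. The part of transcript length in these rises was not tested.

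No role is given here for the remaining 3 called transcripts. EES05176 (SORBI_3004G165200) had 65.3 CPM at LP and 173 CPM at SP in the lateral root apex, against 14.3 and 24.6 CPM in the LP and 6.65 and 7.04 CPM in the SP elongation zone libraries (3.45 ± 0.61, edgeR adjusted p = 0.0299). EES09009 (SORBI_3005G220900), with a domain of unknown function, had 6.02 CPM at LP and 29.6 CPM at SP, against 0.24 and 0.835 CPM in the LP and 0.517 and 2.93 CPM in the SP elongation zone libraries (3.80 ± 0.67, edgeR adjusted p = 0.0296). OQU89985 (SORBI_3002G311501) had 28.1 CPM at LP and 21.5 CPM at SP, against 6.57 and 6.42 CPM in the LP and 2.88 and 1.57 CPM in the SP elongation zone libraries (2.73 ± 0.41, edgeR adjusted p = 0.0225). In all of them the lowest lateral value exceeded the highest elongation zone value by more than 2-fold.

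**Figure D2:**
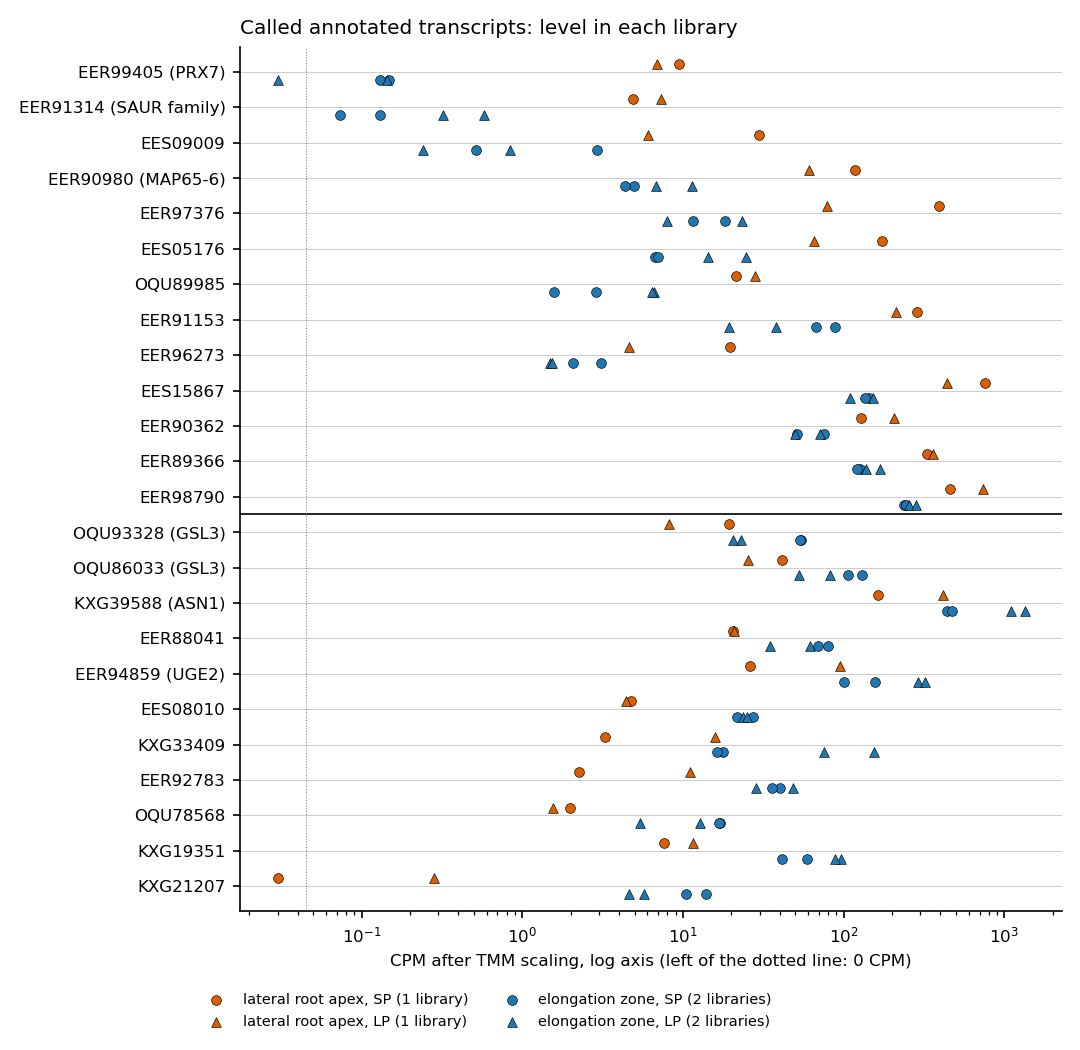
CPM on a log axis of the 24 called annotated transcripts in each of the 6 libraries, with the 2 lateral root apex libraries (orange, set slightly above each line) and the 4 elongation zone libraries (blue, set slightly below); triangles are LP and circles SP. Above the black line are the 13 transcripts called higher, where every orange point lies right of every blue point, and below it the 11 called lower, where every orange point lies left.

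Most calls fell on transcripts that no source used here annotates, and the largest changes among these at a mean of 5 CPM or more were near presence or absence. KXG19628 had 15.4 CPM at LP and 69.3 CPM at SP in the lateral root apex and no count in any elongation zone or seminal root apex library, so that it was at least 1028-fold higher, set against a floor of 3 counts over the 4 elongation zone libraries (edgeR adjusted p = 0.0302). KXG24319 had 225 CPM in the lateral SP library and 0 CPM in the lateral LP library and in the elongation zone, so that its call (adjusted p = 0.0454) rests on 1 library. OQU85962 had no count in the lateral root apex, against 20.4 and 2.12 CPM in the LP and 57.5 and 43.8 CPM in the SP elongation zone libraries, and was at least 265-fold lower, set against 3 counts over the 2 lateral libraries (adjusted p = 0.0286). KXG39714 had 1 count over the 2 lateral libraries, and the elongation zone mean was 750-fold higher (95% counting interval 135 to 29640, adjusted p = 0.0296). Such bounds and intervals cover counting error only.

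Counting all transcripts, 69 were at 0 in both lateral libraries while all 4 elongation zone libraries had at least 1 CPM, and 44 of them were called lower. In the other direction, 19 were at 0 in all 4 elongation zone libraries while both lateral libraries had at least 1 CPM, and 6 of them were called higher. Over all tested transcripts, 1.21% were called lower and 2.19% higher. These transcripts were picked on the same counts that the test used, so that the called numbers only describe them. The directions are unlike, since one needs zeros in 2 libraries and the other in 4. Of the 69, 30 were at 1 CPM or more in all 4 seminal root apex libraries. The lateral SP library is at 0 for 6617 of the tested transcripts and elongation zone LP replicate 2 for 6376, against 1915 to 3489 in the other 4 libraries, so that zeros are unevenly spread over the libraries.

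The gene lists hold 190 IDs in 10 lists, of which 152 were tested. Among them 3 were called higher and 4 lower (4.61%, against 3.4% of all tested transcripts), and the median log2 fold change was -0.47, against -0.25 for all. The lists were chosen with results of these data known, and partly from transcripts that the study picked on these samples, so that their counts are not independent evidence of a direction. At an unadjusted p under 0.05, 17 of the 152 were higher and 31 lower, against 3880 higher and 3894 lower of all 33039 tested transcripts, the background for the unadjusted counts of single lists given here.

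The cell wall and callose list had 46 members, of which 39 were tested, 1 was called higher (PRX7) and 3 lower (both GSL3 matches and UGE2), with a median of -0.61. Members that were not called spread widely. EER91394, matched to a pectin methylesterase inhibitor family, had 8.36 and 19 CPM in the LP and SP lateral libraries, against 1.18 to 4.3 CPM in the elongation zone (2.70 ± 0.76, edgeR adjusted p = 0.0913). KXG25219, matched to the cellulose synthase-like CSLA14, had 27.5 and 13.3 CPM in the LP and SP lateral libraries, against 46.4 to 54.9 CPM in the elongation zone (-1.39 ± 0.32, edgeR adjusted p = 0.0575).

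The cell division and chromosome list had 15 tested members of 16, 1 of them called higher (MAP65-6), and a median of -0.56. KXG25342, matched to the cohesin subunit SMC1 that holds sister chromatids together, had 81.6 and 72.3 CPM in the LP and SP lateral libraries, against 89.3 to 212 CPM in the elongation zone (-1.03 ± 0.38, edgeR adjusted p = 0.159). The auxin list had 19 tested members of 29, 1 of them called higher (the SAUR EER91314), and a median of -0.02. OQU77362 was matched to several Arabidopsis genes, including the auxin transporter ABCB4. It had 0.142 and 0.689 CPM in the LP and SP lateral libraries, against 1.54 to 10.6 CPM in the elongation zone. It missed the threshold (-4.12 ± 0.91, edgeR adjusted p = 0.0524). ARF19, a regulator of lateral root formation, was measured by KXG19536 at 24.9 and 13.4 CPM in the LP and SP lateral libraries and 18.1 to 26.4 CPM in the elongation zone, with overlapping values.

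The nitrogen list was tested in all 11 members, of which 1 was called lower (ASN1), with a median of -1.38 (-1.27 with members at 0 in a region set to their bound). EES06135, a match of the high-affinity nitrate transporter NRT2.1, had 1.56 and 2.41 CPM in the LP and SP lateral libraries, against 0.665 to 5.27 CPM in the elongation zone. The sucrose, water channel and proton pump list had 6 tested members of 8, none called by edgeR, with 1 higher and 1 lower at an unadjusted p under 0.05 and a median of 1.20. Within it, OQU92441, matched to sucrose synthase SUS4, had 0 and 7.5 CPM in the LP and SP lateral libraries, against 49 to 250.2 CPM in the elongation zone, but missed the threshold (edgeR adjusted p = 0.0726). OQU84152, matched to the vacuolar invertase VI2, had 147 and 68.8 CPM in the LP and SP lateral libraries, against 14 to 63.6 CPM in the elongation zone (1.65 ± 0.38, edgeR adjusted p = 0.0584).

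The core phosphate starvation list had 22 tested members of 23, and none was called between the regions by edgeR, with 1 higher and 4 lower at an unadjusted p under 0.05 and a median of -0.51. The members named in this paragraph, chosen after their values were seen, had more at LP than at SP in both regions. The PHO2 match EES19930 of the same list, given under other observations, had less at LP than at SP in the lateral root apex. EER90017, matched to the phosphate sensing protein SPX2, had 206 CPM at LP and 17.2 CPM at SP in the lateral root apex, against 453 and 376 CPM at LP and 25.4 and 25 CPM at SP in the elongation zone (-0.78 ± 0.27, edgeR adjusted p = 0.143). EES18158, matched to SQD1 of sulfolipid synthesis, had 46.9 CPM at LP and 4.39 CPM at SP, against 104 and 81.3 CPM at LP and 4.73 and 3.63 CPM at SP in the elongation zone (-0.45 ± 0.38, edgeR adjusted p = 0.502). At each level the gap between the regions was small beside the gap between the phosphorus levels. EES14277, matched to the galactolipid synthase MGD3, had 25.3 CPM at LP and 0 CPM at SP in the lateral root apex, against 40.8 and 42 CPM at LP and 0.296 and 0.262 CPM at SP in the elongation zone.

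The defence and jasmonate list (20 tested of 27, median 0.04), the metal and organic acid transport list (12 of 19, median -0.28), the vascular list (5 of 5, median -0.99) and the photosynthesis list (3 of 6, median -2.31) had no called member by edgeR. At an unadjusted p under 0.05 the defence list had 2 higher and 3 lower members, the metal list 1 and 1, the vascular list 0 and 0 and the photosynthesis list 0 and 2. EES17674, matched to a chitinase family, had 41.3 and 187 CPM in the LP and SP lateral libraries, against 7.52 to 25.1 CPM in the elongation zone (3.27 ± 0.76, edgeR adjusted p = 0.0586). KXG38151, matched to the molybdate transporter MOT1, had 6.16 and 5.94 CPM at LP and SP, against 0.517 to 3.21 CPM in the elongation zone (2.29 ± 0.72, edgeR adjusted p = 0.115).

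**Figure D3:**
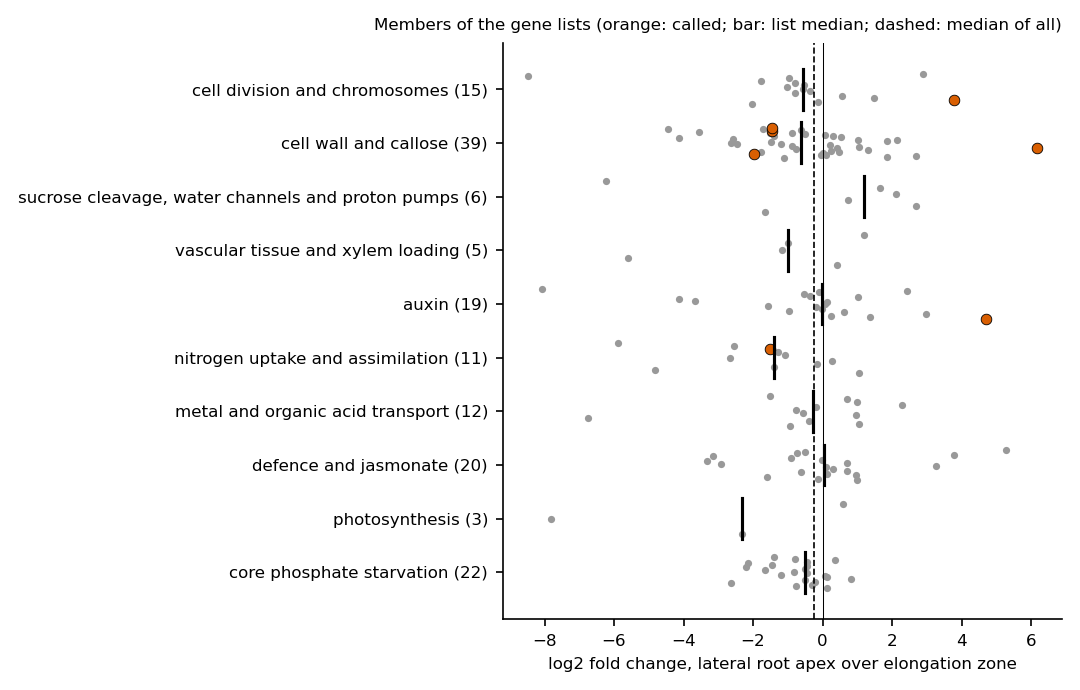
Log2 fold change of the lateral root apex over the elongation zone for each tested member of the 10 gene lists, with the number tested in parentheses. Larger orange points are the 7 called members, grey points those not called, black bars the list medians (from -2.31 to 1.20) and the dashed line the median of all tested transcripts, -0.25; vertical offsets only separate points.

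The region labels were checked against 3 classes of marker transcripts. Dividing cell markers (matches of CYCB1;4, SCL28 and MAP65-4) summed to 5.60 and 7.06 CPM in the LP and SP lateral libraries, against 11.1 to 31.1 CPM in the elongation zone and 11.3 to 25.5 CPM in the seminal root apex. Most of the sum came from 1 transcript, the MAP65-4 match OQU87349, with 3.97 and 5.86 CPM in the LP and SP lateral libraries, against 8.93 to 26.8 CPM in the elongation zone. CYCB1;4 itself (EES02793) was at 1.28 and 0.258 CPM in the lateral root apex and 0 to 1.85 CPM in the elongation zone, with overlapping values. SCL28 (EER87757) was at 0.354 and 0.517 CPM in the LP and SP lateral libraries, against 1.2 to 2.44 CPM in the elongation zone. SCL28 and OQU87349 thus had both lateral values below all elongation zone values (14.5% of all tested transcripts did). None of the 3 tested transcripts was called, and none had both lateral values above the elongation zone. MAP65-6 (EER90980) of the cell division list, which is not among these markers, was called higher in the lateral root apex. Vascular markers (SKOR, HMA2, NPF7.3 and MYB83) summed to 6.87 and 8.70 CPM in the LP and SP lateral libraries. The sums were 10.4 to 23.1 CPM in the elongation zone and 25.6 to 45.8 CPM in the seminal root apex. The lateral sums were thus below, and the seminal root apex sums above, those of the elongation zone. SKOR made up most of each sum. HMA2 was at 0 in both lateral libraries and in both elongation zone LP libraries, against 1.33 and 0.787 CPM in the SP libraries of that zone. NPF7.3 (KXG30977) went the other way, with 0.921 and 0.775 CPM in the LP and SP lateral libraries, against 0.128 to 0.575 CPM in the elongation zone, and was not called. Green tissue markers were absent or low apart from the phosphoribulokinase match EES12777, which had 23.1 and 66.4 CPM in the lateral root apex and 22.9 to 33.7 CPM in the elongation zone. The light-harvesting match EES09551 had 0.992 and 0.775 CPM in the lateral root apex and 2.38 to 6.51 CPM in the elongation zone (edgeR adjusted p = 0.0977), and the rubisco activase match EES10316 was at 0 in both lateral libraries, against 1.09 to 2.49 CPM in the elongation zone. The photosystem I antenna match LHCA3 was at 0 in all 10 libraries. The part of these markers in the results was not tested.

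Split by phosphorus level, the comparison called more transcripts at SP than at LP. At LP, 29 transcripts were higher (0.0878% of those tested) and 16 lower (0.0484%) in the lateral root apex, 0.136% in all. At SP, 2260 were higher (6.84%) and 2275 lower (6.89%), 13.7% in all. Each level sets 1 lateral library against 2 elongation zone libraries and assumes that the lone library varies like the replicates of the other groups. The SP contrast holds the lateral library with few detected transcripts, which was at 0 counts for 6617 (20%) of all tested transcripts. A transcript at 0 in that lateral library can only be called lower in the SP contrast. The LP contrast holds elongation zone LP replicate 2. Without elongation zone LP replicate 2 the calls at LP were 1077, and without replicate 1 of that group 1079.

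The direction was the same at LP and at SP for 59.6% of all tested transcripts and 99.2% of the 1123 called. All 24 called annotated transcripts had the same direction at both levels, which only describes them, since they were called on the same libraries. None of them was called at LP, where adjusted p ranged between 0.0512 and 0.214, and 20 were called at SP. MAP65-6 (EER90980) had a log2 fold change of 2.73 ± 0.45 at LP and 4.66 ± 0.47 at SP, SULTR1;3 (EER91153) of 2.89 ± 0.51 at LP and 1.88 ± 0.50 at SP, and ABCC10 (KXG19351) of -2.99 ± 0.39 at LP and -2.73 ± 0.38 at SP. The test of the difference between the levels passed for none of the 24, with adjusted p between 0.0657 and 1. The closest was EES05176, with 1.75 ± 0.35 at LP and 4.66 ± 0.37 at SP.

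**Figure D4:**
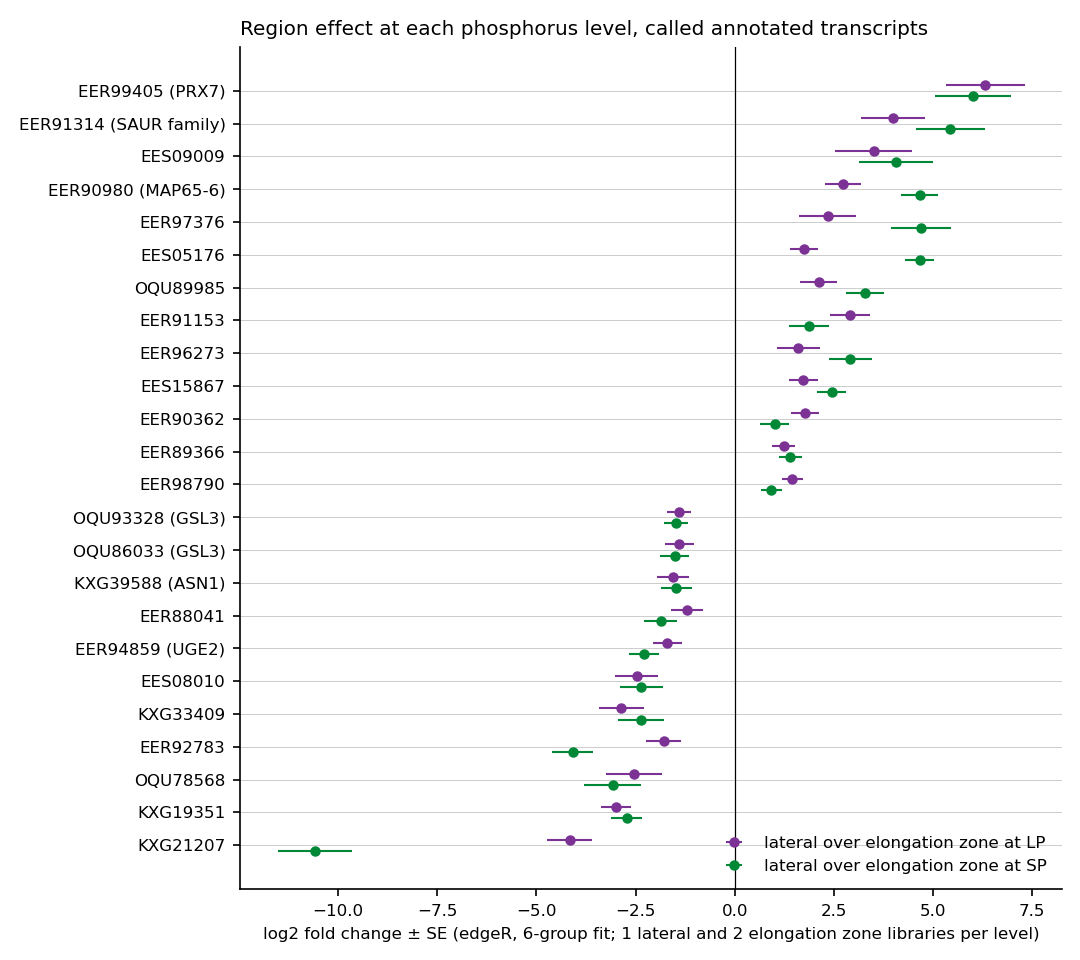
Log2 fold change of the lateral root apex over the elongation zone at LP (purple) and at SP (green) for the 24 called annotated transcripts, with bars of 1 standard error from the fit of 6 groups (1 lateral and 2 elongation zone libraries for each level). Every transcript keeps its side of 0 at both levels; KXG21207 had no count in the lateral SP library, so that its SP value depends on the prior count of the fit.

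The difference of the region effect between LP and SP was called for 282 transcripts (0.854%), with a larger value at LP in 227 of them (0.687%) and a smaller one in 55 (0.166%). Of these 282, 162 (57.4%) had no count in the lateral SP library, and once transcripts at 0 in a single library but present in every other were left out, no transcript was called by edgeR (6341 at an unadjusted p under 0.05).

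The 24 annotated transcripts kept their direction in every one of the 19 other settings of the region effect and at each phosphorus level. They were called on the same counts that these settings refit, so that this only describes them. Leaving out a lateral library leaves the contrast at the other phosphorus level, so that these settings are not separate. Without the lateral SP library 0 of the 24 were called (adjusted p 0.0502 to 0.275), and without the lateral LP library 20. Leaving out elongation zone SP replicate 1 or 2 left 1 call each, LP replicate 1 left 4, and LP replicate 2 left all 24. Leaving out a seminal root apex library left 3, 3, 9 and 9, and a replicate block left 15. With fragment length as a block none was called (0.0546 to 0.219).

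**Figure D5:**
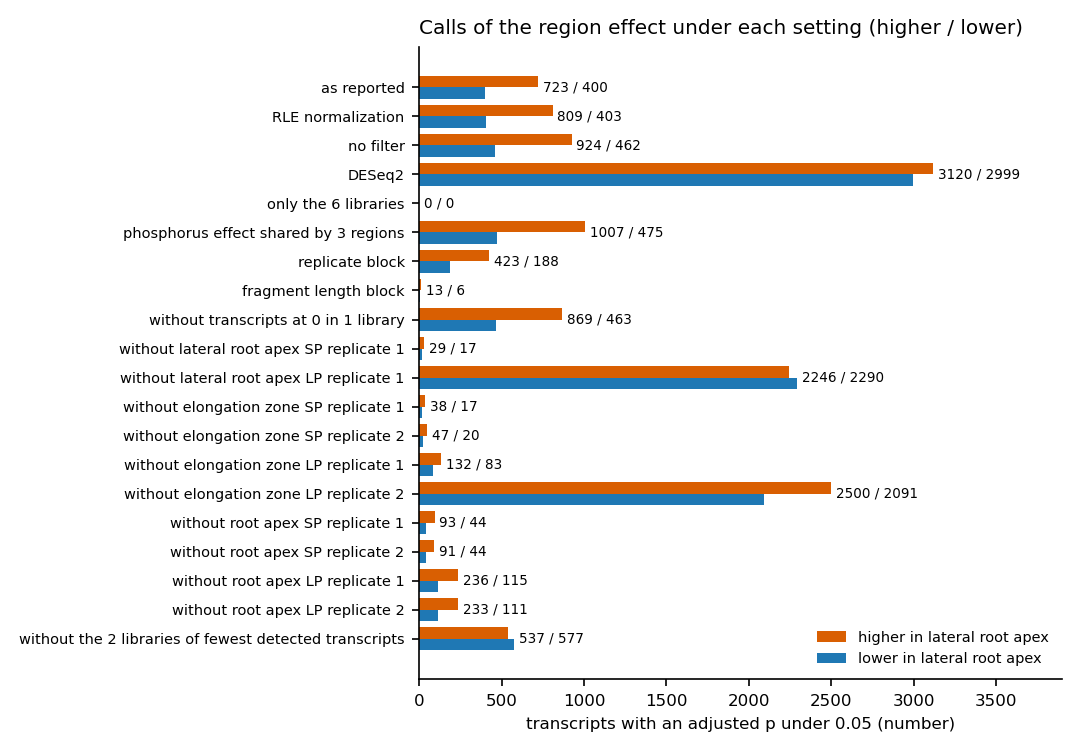
Number of transcripts called higher (orange) and lower (blue) in the lateral root apex under the reported setting (723 and 400) and 19 alternatives. Counts fall to 0 with the 6 libraries alone and to 13 and 6 with fragment length as a block, and reach 3120 and 2999 with DESeq2.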

How the data were processed

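Poly-A RNA-seq libraries of sorghum roots were used. The authors trimmed the paired reads (Trimmomatic), merged runs (SAMtools) and pseudoaligned to sorghum transcripts with kallisto, and the deposited estimated counts were not normalized. The same deposited files hold TPM, scaled within each library, which was not used for tests, and transcript lengths. Other deposited tables hold the authors' own comparison of cytosine methylation between LP and SP roots (methylation difference as a percent or score, p-value and q-value) and were not used here. Versions of the upstream tools are not given here.

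Estimated counts were rounded. The 10 libraries were fitted together in edgeR 4.0.16 (with limma 3.58.1 in R 4.3.3), after TMM normalization and filterByExpr by group, with the quasi-likelihood F test on 5 residual degrees of freedom. Lateral root apex and elongation zone libraries shared a phosphorus block, and each seminal root apex group had its own mean. A fit of 6 groups (4 residual degrees of freedom) gave the effect at LP, at SP and their difference. The standard error is the size of the log2 fold change over the square root of F. Benjamini-Hochberg adjustment ran over 33039 transcripts, at a threshold of 0.05. The lone lateral libraries are taken to have the spread seen among replicates elsewhere. In the fit with a phosphorus block, the difference of the region effect between LP and SP also counts as spread. The p-values measure the spread between these libraries. Totals were between 10114584 and 19067049 estimated counts per library. The scripts were tested on simulated data. For seminal root apex LP replicate 2 the tissue label names the whole root and the title the root apex. That library enters only normalization, filtering and the estimate of the spread.

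Transcripts were paired with genes and Arabidopsis matches through the study's supplementary gene lists (775 IDs, of which the copy at hand lacked 393 lines of one list). None of the IDs matched the RefSeq gene table at hand, so that no coordinates or sequences are given. Named transcripts were every called list member, the 10 largest called rises and the 10 largest called falls without overlap among annotated transcripts at a mean of 5 CPM or more, at most 2 rises and 2 falls without annotation, and the markers. Other list members are named as examples chosen after their values were seen. The members and lists were chosen with earlier results of these data known. Where a region was at 0 counts, a bound was set at 3 counts over the group. The alternatives were RLE normalization, no filter, DESeq2 1.42.0, other sets of libraries or transcripts, blocks for replicate number and fragment length, and leaving out each library in turn.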

Additional observations from a re-analysis of the deposited data

Results flagged for a closer look

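The effect of the region differed between the phosphorus levels for 7 annotated transcripts, by the test of the difference in edgeR, and these were named after their values were seen. When transcripts at 0 in 1 library were left out, EES05741, EES05808, EES08951 and OQU82651 were still tested. None of these was called by edgeR. Their own counts were the same in that setting, so that their fitted differences (-3.81, -4.56, 4.08 and 15.96) could hardly move.

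EES05808, an oligopeptide transporter family member, had 22 CPM at LP and 969 CPM at SP in the lateral root apex, against 8.06 and 16.5 CPM at LP and 18.2 and 27.2 CPM at SP in the elongation zone, a difference (LP minus SP) of -4.57 on the log2 scale (adjusted p = 0.0494). The seminal root apex had 3.99 and 3.39 CPM at LP, against 326 and 429 CPM at SP. EES05741, matched to Arabidopsis AT4G00910, had 7.72 CPM at LP and 5.51 CPM at SP in the lateral root apex, against 86.5 and 86.8 CPM at LP and 3.62 and 5.16 CPM at SP in the elongation zone (-3.81, adjusted p = 0.0412). EES08951, matched to AT2G17780, had 11.7 CPM at LP and 3.53 CPM at SP, against 8.3 and 7.96 CPM at LP and 39 and 44.2 CPM at SP in the elongation zone (4.08, adjusted p = 0.0335).

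The other 4 had no count in the lateral SP library, so that the fitted differences depend on the prior count. They were EER92606, an inositol phosphate kinase match (8.07, adjusted p = 0.0488), EES17667, a peptide chain release factor (10.82, adjusted p = 0.0307), KXG19414 of the wall-associated kinase family (8.75, adjusted p = 0.0414) and OQU82651, a RING-CH zinc finger protein (15.96, adjusted p = 0.0412). Their lateral LP levels were 5.88, 8.79, 1.7 and 1.2 CPM. OQU82651 was also at 0 in both elongation zone LP libraries, against 4.07 and 2.58 CPM in the SP libraries of that zone, so that its effect at LP rests on 17 counts in 1 library.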

How the results depend on the processing

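The calls between the regions (1123) were 6119 with DESeq2, 0 with the 6 libraries alone, 19 with fragment length as a block, 4535 with the SP libraries only and 45 with the LP libraries only. They ranged between 46 and 4591 when 1 library was left out. With RLE normalization, no filter, a shared phosphorus effect or without transcripts at 0 in 1 library the count stayed within 1.5 times. The effect at SP (4535) gave 8300 calls with DESeq2 and 113 to 9370 with 1 library left out. The effect at LP (45) gave 336 without a filter, 2770 with DESeq2, 72 without transcripts at 0 in 1 library and 0 to 1079 with 1 library left out. The difference between the levels (282) gave 472 without a filter, 3324 with DESeq2, 0 without transcripts at 0 in 1 library and 0 to 5440 with 1 library left out. Of the gene lists, 7 members were called as reported, 11 without a filter, 43 with DESeq2, 0 with the 6 libraries alone, 0 with fragment length as a block, 18 at SP only, 0 at LP only and 0 to 32 with 1 library left out. At a minimum of 5 CPM in the other region, 8 transcripts were at 0 in both lateral libraries and 6 in all elongation zone libraries. The causes of these changes were not tested. DESeq2 and the 6-library fit differ in how the spread is estimated.

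A replicate block gave 611 calls, 543 of them shared with the 1123. The labels give both lateral libraries number 1, whereas the name of the deposited SP file carries a 2, so that the number behind this block is in doubt. Same-numbered elongation zone libraries at SP and LP deviated together with a correlation of 0.21. Over all 6 pairs of groups the correlation ranged between -0.0547 and 0.385, the highest for the elongation zone and the seminal root apex at LP. The methods state that the segments of these 2 regions were cut from the same seminal roots. The labels do not say which libraries share plants, so these correlations cannot decide whether libraries were paired. The 24 called annotated transcripts kept their direction under every alternative run, which only describes them, since the alternatives refit the counts they were called on. Of the 4 called ones without annotation, KXG24319 had no count in either region at LP and could not be tested without the lateral SP library. Of the markers that were not called, EES12777 (0.58 on the log2 scale) was -0.34 at LP only, -0.13 without both libraries of few detected transcripts and -0.34 to 1.34 with 1 library left out, and EES02793 (-0.35) was 1.35 with fragment length as a block, 0.89 at LP only and -2.30 to 0.88 with 1 library left out. Lateral values rest on 1 library at each level, which limits every contrast by level.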

Other observations

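The values of 4 annotated transcripts that were not called are given here. EES05912, an RPL35A match, had 998.5 CPM at LP and 2867 CPM at SP in the lateral root apex, against 185 and 527 CPM at LP and 243.5 and 294 CPM at SP in the elongation zone (2.56 ± 0.59 on the log2 scale, edgeR adjusted p = 0.0564). EER90782, matched to the root ferredoxin reductase RFNR2, which supplies reducing power for nitrite reduction, had 452 and 816 CPM in the LP and SP lateral libraries, against 201 to 369 CPM in the elongation zone (1.04 ± 0.31, edgeR adjusted p = 0.104). EES19930, matched to PHO2, an enzyme that marks phosphate transporters for breakdown, had 38.2 and 58.5 CPM in the LP and SP lateral libraries, against 45.3 to 333 CPM in the elongation zone, with overlapping values (-1.66 ± 0.47, edgeR adjusted p = 0.0926). EER95400, matched to LOX3 of jasmonate synthesis, had 4.89 and 6.03 CPM, against 9.63 to 25.9 CPM in the elongation zone (-1.60 ± 0.45, edgeR adjusted p = 0.0924). None of these passed the threshold, and they were chosen after their values were seen.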
